A study of Homo sapiens with 4 samples.

Results

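The SRC family of tyrosine kinases and the proteins that set its activity were followed at the transcript level in prostate cancer cells with and without UGT2B17. The 10 genes were chosen by symbol and comprise the kinases SRC, YES1, FYN, LYN, LCK and FRK, the inhibitory kinase CSK, its membrane anchor PAG1, and the phosphatases PTPN1 and PTPN11. All 10 symbols were found among the 60880 genes of the deposited counts, each with a single Ensembl identifier. Of these, 9 had enough reads to be tested and LCK did not.

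SRC family kinases sit on the inner face of the plasma membrane through a lipid tail and pass signals from integrins and growth factor receptors to adhesion, motility and growth programmes. CSK phosphorylates a tyrosine in the C-terminal tail of these kinases, and the tail then folds back onto the SH2 domain and closes the enzyme. PAG1 holds CSK at the membrane, whereas PTPN1 removes the tail phosphate and thereby opens SRC. PTPN11, also called SHP2, is a phosphatase that generally favours SRC family and RAS signalling. These controls act on protein, so that transcript counts report how much of each component could be made and not how active it is.

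RNA-Seq was performed on 4 libraries. LNCaP95 cells derive from LNCaP prostate cancer cells and grow without androgen, and are labelled with the cell line name LN95 and a WT genotype (replicates 1 and 2). LN95(KO) carries the same cell line name with the genotype UGT2B17 KO (replicates 3 and 4), made with CRISPR vectors against UGT2B17, a glucuronosyltransferase that inactivates androgens. Both were grown in charcoal-stripped serum and left untreated. The sources used here do not say whether LN95(KO) is 1 clone or a pool, nor whether the libraries came from separate cultures, so p-values describe the spread between these libraries, which may be technical. The series text names the knockout line after LNCaP rather than LNCaP95.

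Gene reads numbered 17330338 to 18813193 per library. UGT2B17 was counted 2788 and 2748 times in the LNCaP95 libraries, against 21 and 20 times after knockout, which fits the labels. All 8 luminal prostate markers examined were present, among them FOXA1, although KLK2 and KLK3 differed by more than 2-fold between the groups. Summed markers of leukocytes reached at most 0.904 CPM (counts per 1e+06 gene reads after scaling) in any library. Those of basal cells were at most 0.164 CPM in LNCaP95 and at least 1.02 CPM in LN95(KO). Most of the LN95(KO) sum was KRT14, with 17 and 20 reads against 1 and 2 in LNCaP95. KRT5 had 1 and 3 reads against 0 and 1, and TP63 had 0 and 0 against 2 and 0. Endothelial markers reached at most 0.437 CPM in LNCaP95 and at least 2.77 CPM in LN95(KO). This was VWF alone (49 and 58 reads against 8 and 8), as CDH5 had 0 reads in every library. Fibroblast markers lay between 30.2 and 35.7 CPM in all libraries, nearly all of it from COL1A1. Among them, LUM had 24 and 19 reads in LNCaP95 and 0 and 0 in LN95(KO). Reads that did not align came to 8.05% and 7.71% of entries after knockout and to 3.85% and 3.96% in the controls. The part of these differences in the results was not tested.

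Sequences around the activation loop tyrosine and around the last tyrosine of the reading frame are shown first, because they show how far the kinases differ. Coding sequences were read from GENCODE canonical transcripts on GRCh37, 5′ to 3′ on the coding strand, with the tyrosine codon in capitals and codons counted from 1 at the start codon. Around the activation loop tyrosine, which the kinases phosphorylate on themselves when active, the sequences were as follows.
SRC codon 419: gaagacaatgagTACacggcgcggcaa
YES1 codon 426: gaagacaatgaaTACacagcaagacaa
FYN codon 420: gaagacaatgagTACacagcaagacaa
LCK codon 394: gaggacaacgagTACacagccagggag
FRK codon 387: aatgaagacatcTATgaatctagacac
Against SRC, these 27 bases differed at 5 positions in YES1, 4 in FYN, 7 in LCK and 17 in FRK. They lie at chr20:36030964-36030990 for SRC (plus strand, exon 12), chr18:736809-736835 for YES1 (minus strand, exon 10), chr6:112015579-112015605 for FYN (minus strand, exon 12), chr1:32745568-32745594 for LCK (plus strand, exon 11) and chr6:116264316-116264342 for FRK (minus strand, exon 7).

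Around the last tyrosine codon of the reading frame, which in SRC is the tail tyrosine phosphorylated by CSK and dephosphorylated by PTPN1, the sequences were as follows.
SRC codon 530: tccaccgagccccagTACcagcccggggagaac
YES1 codon 537: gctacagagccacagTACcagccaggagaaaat
FYN codon 531: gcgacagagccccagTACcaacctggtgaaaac
LCK codon 505: gccacagagggccagTACcagcctcagcct
FRK codon 497: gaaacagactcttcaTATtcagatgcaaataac
The 33 bases of SRC differed from those of YES1 at 8 positions, of FYN at 7 and of FRK at 21. Each stretch lies in the last exon of its transcript, at chr20:36031744-36031776 for SRC, chr18:724430-724462 for YES1, chr6:111982948-111982980 for FYN, chr1:32751285-32751314 for LCK and chr6:116263589-116263621 for FRK. Over the whole coding sequence SRC was 68.3% identical to FYN, 66.5% to YES1, 64.4% to LCK, 62.2% to LYN and 57.2% to FRK. In none of the 10 genes did a window of 50 bases of the longest transcript occur unchanged in a transcript of another of the 10. With other annotated genes, 10.3% of such windows of YES1 were shared and at most 2.29% of those of any other gene in the list. The deposited files are marked as counted without strand, and exons of other genes covered 6.14% of the exon bases of YES1, 3.41% of PTPN1 and 0.825% of PTPN11, and none of the other 7.

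The 10 genes covered a wide range of levels. Per kilobase of the longest transcript and per 1e+06 reads (RPKM), PTPN11 was highest in LNCaP95 at 22.5 ± 0.0691 (SD, n = 2 libraries), followed by CSK at 20.8 ± 0.476, YES1 at 17.8 ± 0.71, PTPN1 at 14.3 ± 0.484 and SRC at 12.1 ± 0.456. FYN reached 5.94 ± 0.202 RPKM, LYN 2.01 ± 0.00871 and FRK 0.24 ± 0.0474. PAG1 stood at 0.0733 ± 0.0318 RPKM. Neighbours in this order did not overlap between their libraries in LNCaP95. The order is that for the longest transcript, and orders by other lengths were not examined. All annotated exons together span 13456 bases in PTPN11, against 7648 in its longest transcript. For CSK these lengths are 4546 and 2743, for YES1 5100 and 4639 and for PTPN1 4041 and 3979. In LN95(KO) the RPKM values of CSK and PTPN11 overlapped, and LYN stood above FYN. YES1 was thus the kinase of the family with the highest level per length in both lines, with SRC next.

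**Figure D1:**
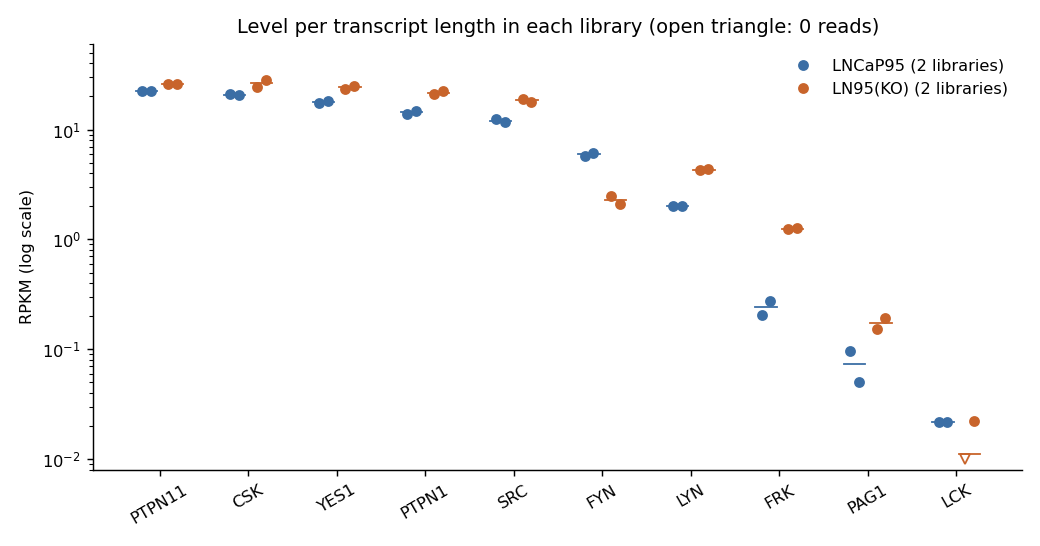
Level of each of the 10 genes in RPKM (log scale) in each library, ordered by the LNCaP95 mean. Points are single libraries, bars are group means and the open triangle marks a library with 0 reads; LYN and FYN change places between the lines.

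LCK, best known as the SRC family kinase of T cells, was at the limit of detection. A single read was counted in each control library, and 0 and 1 in those of LN95(KO). A count of 0 allows up to 3 reads, or 0.163 to 0.169 CPM in these libraries, so no difference was detectable.

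The question was then which parts of this machinery differ where UGT2B17 is knocked out, since the study examined SRC signalling in relation to UGT2B17. The study reported that depletion of UGT2B17 lowered activation of the SRC protein, which transcript counts do not measure. Transcripts of 8 genes rose in LN95(KO) and those of 1 gene, FYN, fell (edgeR, adjusted p under 0.05). FRK, PAG1 and LYN rose more than 2-fold and FYN fell more than 2-fold, whereas SRC, PTPN1, YES1, CSK and PTPN11 rose by smaller amounts. Among all 15626 genes tested, an adjusted p under 0.05 was reached by 59.8%, with 29.8% higher and 30.1% lower. A change of over 2-fold at that adjusted p was found in 18.0% (8.86% higher and 9.13% lower) against 4 of the 9 genes here. The median log2 fold change of the 9 genes was 0.60, against -0.01 over all genes tested, and the median absolute value was 0.62 against 0.37. The 2 groups did not overlap in CPM for any of the 9, and neither did they for 79.8% of all genes tested. These are bulk counts, in which a change in the share of cells that express a gene and a change in its level per cell cannot be told apart.

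**Figure D2:**
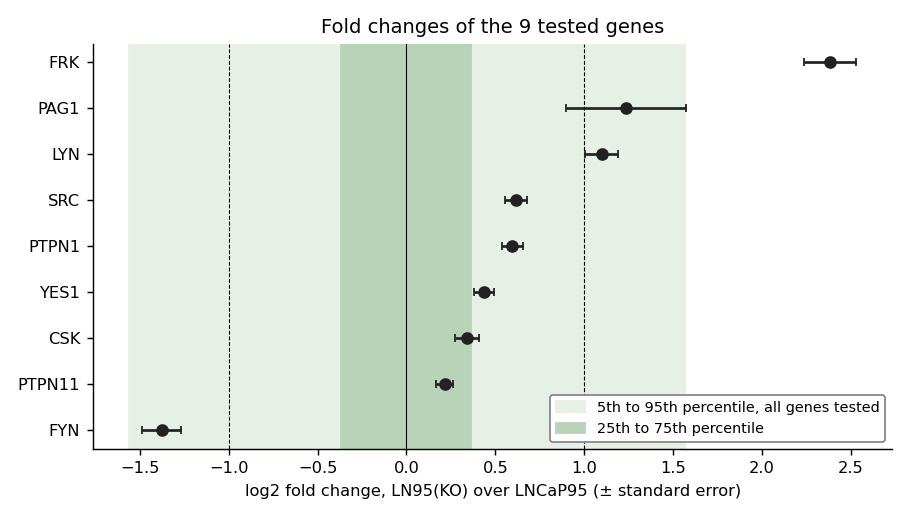
Log2 fold change of the 9 tested genes, LN95(KO) over LNCaP95, with the standard error of the edgeR fit. Shaded bands give the 5th to 95th and 25th to 75th percentiles of all genes tested and dashed lines mark a 2-fold change; FRK lies outside the outer band.

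SRC, the founding member of the family, was counted 1096 and 1031 times in the LNCaP95 libraries, against 1617 and 1569 times after knockout. Both knockout libraries were above both controls. Its level went up from 57.8 ± 2.19 CPM to 88.7 ± 3.81 CPM (mean and SD of 2 libraries), which is 0.62 on the log2 scale with an SE of 0.06 (edgeR, adjusted p 1.2e-07). This corresponds to 1.53-fold, and 31.6% of all genes tested had a larger absolute change.

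YES1, a broadly expressed member of the family, was counted 1484 and 1558 times in the LNCaP95 libraries, against 1924 and 2106 times after knockout. The shift was smaller than that of SRC and in the same direction. It rose from 82.7 ± 3.3 to 112 ± 4.74 CPM, which is 0.44 on the log2 scale with an SE of 0.06 (edgeR, adjusted p 3.7e-06).

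FYN, a kinase of neurons, T cells and many epithelia, was the exception in direction. It was counted 388 and 404 times in the LNCaP95 libraries, against 158 and 140 times after knockout, so that each knockout library held well under the count of either control. The level fell from 21.5 ± 0.732 to 8.3 ± 0.888 CPM, a change of -1.38 on the log2 scale with an SE of 0.11 (edgeR, adjusted p 8.52e-09). A larger absolute change was seen in 11.9% of all genes tested.

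LYN, a kinase prominent in B cells and myeloid cells and also made by epithelial tumours, moved the other way. It was counted 219 and 216 times in the LNCaP95 libraries, against 445 and 465 times after knockout, and the replicates of each line lay close together. The level rose from 11.8 ± 0.0511 to 25.3 ± 0.239 CPM, which is 1.10 on the log2 scale with an SE of 0.09 (edgeR, adjusted p 2.06e-08). The 10 leukocyte markers together gave 0.271 and 0.218 CPM in the controls and 0.904 and 0.658 CPM after knockout, less than the level of LYN in any library. CD3D, CD3E and MS4A1 had 0 reads in all 4 libraries, PTPRC had 1 read in 1 LNCaP95 library, and the other markers except LCP2 had at most 3 reads in any library. LCP2, an adaptor of T cell receptor signalling, had 1 and 0 reads in the controls and 9 and 6 after knockout, which is 0.508 and 0.329 CPM of the knockout sums. The part of these reads in the level of LYN was not tested.

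FRK, a more distant relative named for the Fyn-related kinase and expressed in epithelia, changed most among the 9. It was counted 51 and 67 times in the LNCaP95 libraries, against 293 and 310 times after knockout. The groups were far apart, with both knockout libraries above both controls. The level rose from 3.21 ± 0.633 to 16.8 ± 0.306 CPM, which is 2.38 on the log2 scale with an SE of 0.15 (edgeR, adjusted p 2.36e-10), or 5.22-fold. An absolute change larger than this was found in 5.19% of genes tested. Without LNCaP95 replicate 1 the log2 fold change was 2.19 and without LNCaP95 replicate 2 it was 2.60.

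The make-up of the family was expressed as the share of each kinase in the summed RPKM of the 6 kinases, a description to which no test was applied. YES1 held 45.9% and 47.7% of the LNCaP95 pool and 46.4% and 49.2% of the LN95(KO) pool, and these ranges overlapped. For SRC the shares were 32.8% and 30.5% before and 37.8% and 35.5% after knockout. SRC and YES1 together therefore formed most of the pool in each library. FYN went from 15.6% ± 0.327 to 4.53% ± 0.49, while LYN went from 5.29% ± 0.0915 to 8.53% ± 0.0703 and FRK from 0.63% ± 0.116 to 2.48% ± 0.0423 (SD, n = 2 libraries each). The ratio of FYN to LYN, per length, was 2.87 and 3.03 in the controls but 0.575 and 0.487 after knockout. The summed level of the 6 kinases was 38.1 ± 0.495 RPKM in LNCaP95 and 50.5 ± 0.0619 RPKM in LN95(KO), a ratio of 1.33. The lengths of FYN and SRC depend most on the annotation taken, and with the union of annotated exons the share of FYN changed by -7.14 percentage points rather than -11.0.

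**Figure D3:**
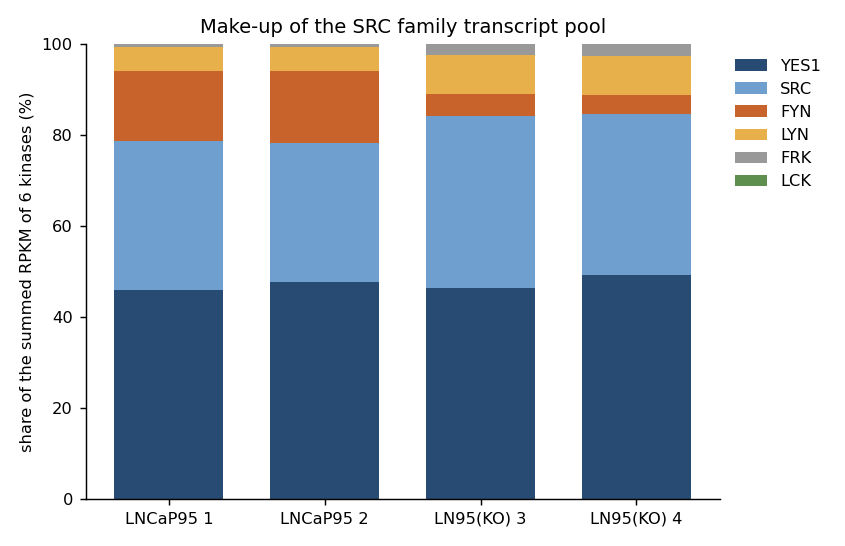
Share of each kinase in the summed RPKM of SRC, YES1, FYN, LYN, FRK and LCK in each of the 4 libraries, as stacked bars from 0 to 100%. The FYN segment is 15.3% and 15.8% in the controls and 4.88% and 4.18% after knockout.

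Among the regulators, CSK, the kinase that phosphorylates the inhibitory tail, was counted 1071 and 1029 times in the LNCaP95 libraries, against 1194 and 1405 times after knockout. The groups did not overlap, but the knockout libraries differed from each other, with 67.5 and 77.0 CPM against 58.0 and 56.2 CPM in LNCaP95. CSK rose by 0.34 on the log2 scale with an SE of 0.07 (edgeR, adjusted p 0.000366). Leaving out LN95(KO) replicate 4 gave 0.24 and leaving out replicate 3 gave 0.44, and 52.7% of all genes tested had a larger absolute change.

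PAG1, the raft adaptor that recruits CSK, was close to the lower limit of the test. It was counted 19 and 10 times in the LNCaP95 libraries, against 29 and 38 times after knockout, and the groups did not overlap. The level rose from 0.788 ± 0.342 to 1.86 ± 0.314 CPM, which is 1.23 on the log2 scale with an SE of 0.34 (edgeR, adjusted p 0.00449). This call did not hold under DESeq2 (adjusted p 0.109), without LNCaP95 replicate 2 (log2 fold change 0.85, adjusted p 0.0739, edgeR) or without LN95(KO) replicate 4 (log2 fold change 1.05, adjusted p 0.0784, edgeR).

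PTPN1, which encodes the phosphatase PTP1B, was counted 1027 and 1069 times in the LNCaP95 libraries, against 1469 and 1630 times after knockout. Its shift was close in size to that of SRC. PTPN1 rose from 57.0 ± 1.92 to 86.2 ± 4.47 CPM, which is 0.60 on the log2 scale with an SE of 0.06 (edgeR, adjusted p 2.23e-07). The ratio of SRC to PTPN1, per length, was 0.886 and 0.800 in the controls and 0.914 and 0.799 after knockout, so the lines overlapped.

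PTPN11 was counted 3176 and 3138 times in the LNCaP95 libraries, against 3520 and 3640 times after knockout. The replicates of each line were within 1 CPM of each other, at 172 ± 0.529 and 199 ± 0.414 CPM. PTPN11 rose by 0.21 on the log2 scale with an SE of 0.05 (edgeR, adjusted p 0.00094), the smallest change of the 9, and 67.3% of all genes tested had a larger one.

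The balance of activating and inhibitory components was described by ratios within a library, which do not depend on scaling between libraries. SRC over CSK, per length, was 0.586 and 0.573 in the controls and 0.775 and 0.639 after knockout. PTPN1 over CSK was 0.661 and 0.716 in the controls and 0.848 and 0.800 after knockout. Both ratios were higher in the knockout libraries, although SRC over CSK differed widely between them. PAG1, the inhibitory component that holds CSK at the membrane, enters neither ratio. Its log2 fold change was 1.23, from low counts and with a call that did not hold under DESeq2. Single ratios of PTPN11 and of the other kinases to CSK were not computed. Against a log2 fold change of 0.34 for CSK, that of PTPN11 was 0.21 and that of FYN -1.38. For YES1 it was 0.44, for LYN 1.10 and for FRK 2.38. The summed level of the 6 kinases over that of CSK was 1.79 and 1.88 in the controls and 2.05 and 1.80 after knockout, and these ranges overlapped.

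The genes are spread over 7 chromosomes, and chromosomes 20, 6 and 8 each hold a pair of them. On GRCh37, SRC (ENSG00000197122, chromosome 20, 35973088 to 36034453, plus strand) and PTPN1 (ENSG00000196396, chromosome 20, 49126858 to 49201778, plus strand) lie 13.1 Mb apart and rose by similar amounts. FYN (ENSG00000010810, chromosome 6, 111981535 to 112194655, minus strand) and FRK (ENSG00000111816, chromosome 6, 116252312 to 116382054, minus strand) lie 4.06 Mb apart and moved in opposite directions. YES1 is on chromosome 18 (721588 to 812547), LCK on chromosome 1 (32716845 to 32751766), CSK on chromosome 15 (75074421 to 75095538) and PTPN11 on chromosome 12 (112856155 to 112947722). LYN and PAG1 are on chromosome 8.

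Neighbouring genes were examined after the values had been seen, to show whether a change was shared by the surrounding region. For the 20 tested genes within 1 Mb of SRC the median was 0.37 on the log2 scale, with 5 changed by over 2-fold at an adjusted p under 0.05, 4 of them higher. Around PTPN1 the median of 20 genes was -0.22, and over the 410 tested genes of chromosome 20 it was -0.06. The 9 tested genes near FRK had a median of 0.02 and the 6 near LYN a median of -0.04, with 0 past a 2-fold change by the edgeR test in either neighbourhood. Around FYN the median of 12 genes was 0.13, and 2 passed a 2-fold change, 1 of them higher and 1 lower (FAM229B, -1.12 on the log2 scale). Around PAG1 the median of 16 genes was -0.29, and 7 passed, 5 of them higher. Around PTPN11 the median of 25 genes was 0.18, around CSK that of 30 genes was 0.06 and around YES1 that of 16 genes was -0.01. FRK and LYN thus lay above all of their tested neighbours and FYN below all of its own. The medians around SRC, PTPN11, CSK and FRK had the sign of the gene itself, and those around the other tested genes did not.

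**Figure D4:**
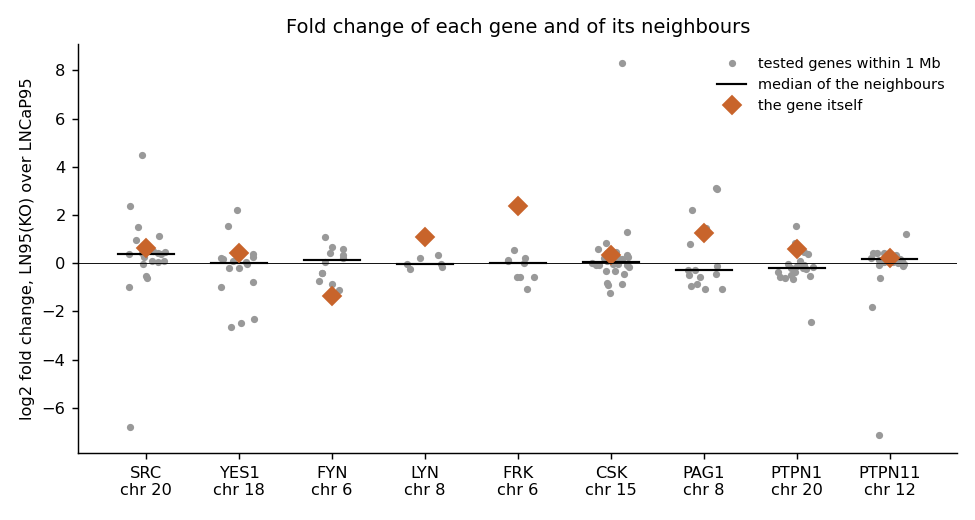
Log2 fold change (LN95(KO) over LNCaP95) of each of the 9 tested genes (diamonds), of the tested genes within 1 Mb of it (grey points) and the median of those neighbours (bars). The diamonds of FRK (2.38) and LYN (1.10) lie above all their neighbours.

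The rest of the family and its relatives were nearly silent or showed no change that passed the test. FGR and BLK, kinases of myeloid and B cells, had 0 reads in LNCaP95 and at most 1 in each library of LN95(KO), and MATK, a CSK homologue, had 2 reads in LNCaP95 replicate 1 and 0 elsewhere. PTK6, an epithelial kinase related to the family, had 356 and 338 counts against 318 and 265, a change of -0.22 on the log2 scale with an SE of 0.11 (edgeR, adjusted p 0.0907). SRMS, its neighbour on chromosome 20, had 42 and 35 counts against 25 and 26 (log2 fold change -0.56, adjusted p 0.0761, edgeR). Of the 6 genes in this list, 2 were tested and 0 passed by edgeR at the adjusted level. DESeq2 also passed 0. Before adjustment, the edgeR p was 0.0587 for PTK6 and 0.0481 for SRMS, so that 1 of the 2 was under 0.05. PTK6 passed with upper quartile factors (edgeR, adjusted p 0.0498) and without LN95(KO) replicate 3 (edgeR, adjusted p 0.0124).

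Of 11 other phosphatases that act on SRC family kinases, 9 were tested, 2 rose and 2 fell, where 59.8% of all genes tested passed, and the median log2 fold change was -0.01. PTPRJ, a receptor-type phosphatase also called CD148, was counted 360 and 374 times in the LNCaP95 libraries, against 1037 and 985 times after knockout. It rose by 1.49 on the log2 scale with an SE of 0.08 (edgeR, adjusted p 2.08e-11). PTPN13, a large phosphatase with PDZ domains, was counted 1237 and 1235 times in the LNCaP95 libraries, against 573 and 525 times after knockout, and its log2 fold change was -1.14 with an SE of 0.07 (edgeR, adjusted p 2.98e-10). DUSP22, named after its value was seen, fell by a smaller amount (log2 fold change -0.82). PTPN18 rose by 0.21 on the log2 scale. PTPRA, PTPRE, PTPN2, PTPN6 and PTPN12 did not pass the test, with log2 fold changes between -0.18 and 0.10. PTPRC, which encodes CD45, and PTPN22, both of leukocytes, had 1 read each over the 4 libraries.

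Among 30 substrates and adaptors of the family, 27 were tested, 14 rose and 9 fell, where 59.8% of all genes tested passed, and the median log2 fold change was 0.19. A change of over 2-fold was reached by 2, ANXA2 and VAV3, where 18.0% of all genes reached it. VAV3, a guanine nucleotide exchange factor for small GTPases, was counted 170 and 179 times in the LNCaP95 libraries, against 39 and 30 times after knockout, a change of -2.30 on the log2 scale with an SE of 0.18 (edgeR, adjusted p 7.1e-09). ANXA2 had 5 and 9 counts against 19 and 16, and its call rested on these few reads and did not hold under DESeq2. ANXA2 and others are named after their values were seen. PXN, which encodes the focal adhesion protein paxillin, rose by 0.79 on the log2 scale, CDCP1, a membrane protein phosphorylated by SRC, by 0.65, and SHC1, an adaptor of growth factor receptors, by 0.58, while AFAP1, an actin filament protein that binds SRC, changed by -0.79. Exons of other genes cover 54.0% of the exon bases of AFAP1, 27.2% of PXN and 15.2% of SHC1, and their counts are uncertain to that extent. The focal adhesion kinase gene PTK2 changed by -0.24 and BCAR1, which encodes p130Cas, by 0.21.

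The 14 genes for lipid modification, chaperoning and turnover of SRC family kinases were all tested. By edgeR at an adjusted p under 0.05, 5 rose and 5 fell (59.8% of all genes tested passed), 0 by over 2-fold (18.0% of all genes did), and the median log2 fold change was 0.02. CDC37, the kinase-specific partner of HSP90, rose by 0.53, and SRCIN1, a scaffold that promotes inhibition of SRC through CSK, changed by -0.61, both named after their values were seen. The genes of HSP90 itself, HSP90AA1 and HSP90AB1, did not pass, with 0.14 and 0.05.

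Dasatinib is an inhibitor of SRC family and ABL kinases that the study applied to LNCaP95 and LN95(KO) cells, among others. Other kinases bound by dasatinib formed the last list. Of 11 genes, 6 were tested, 2 rose and 1 fell, where 59.8% of all genes tested passed, and the median was 0.17. EPHA2, an ephrin receptor, was counted 141 and 122 times in the LNCaP95 libraries, against 404 and 380 times after knockout, which is 1.61 on the log2 scale with an SE of 0.11 (edgeR, adjusted p 1.68e-09). PDGFRB, named after its value was seen, rose by 1.17 on the log2 scale from 22 and 18 to 44 and 44 counts, ABL1 changed by -0.15, and ABL2, DDR2 and TEC did not pass. Under DESeq2 EPHA2 was the 1 gene of this list that passed, so that the calls of PDGFRB and ABL1 did not hold. DDR1 had 1 read in LNCaP95 replicate 1 and 0 in the other libraries, but TUBB, a tubulin gene 151 kb away on chromosome 6, had at most 3, so that the count of DDR1 says nothing on its expression.

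**Figure D5:**
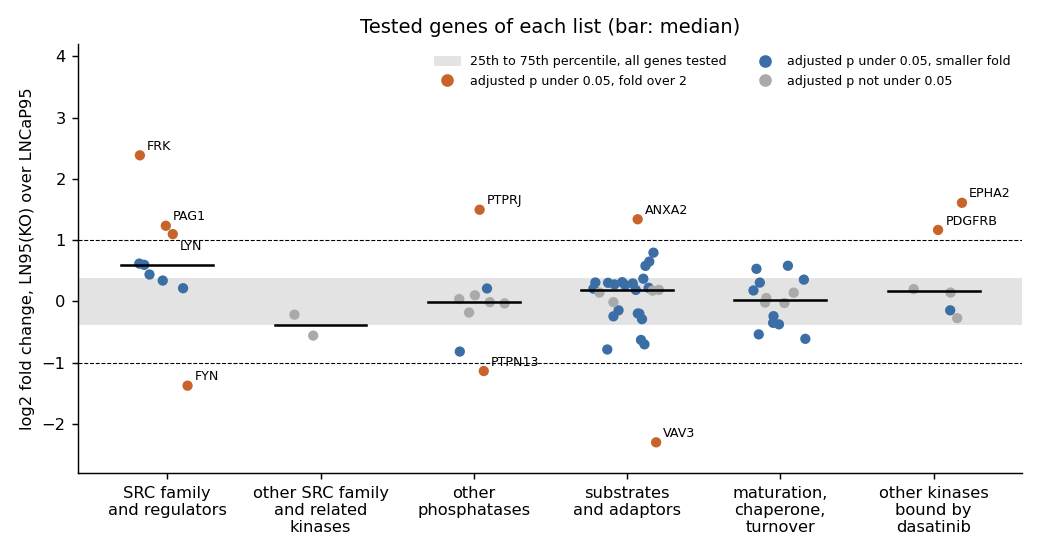
Log2 fold change (LN95(KO) over LNCaP95) of every tested gene in the 6 lists, with list medians as bars, dashed lines at a 2-fold change and a grey band for the middle 50% of all genes tested. Genes past a 2-fold change are named; FYN, PTPN13 and VAV3 are the ones lower in LN95(KO).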

How the data were processed

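RNA-Seq was performed on poly(A)-selected RNA of LNCaP95 and LN95(KO) cells. Alignment by the authors used hisat2 (version 2.1.0) and the hg19 genome, htseq then assigned reads to GENCODE genes (the deposited files are marked as counted without strand), and raw counts were deposited. The series table and the files of single libraries differed in 0 cells. Genes took 72.5% to 76.2% of entries, and the 5 summary lines of htseq were kept out of library sizes. Replicates differed by more than sampling noise (chi-square per degree of freedom 2.31 and 3.31).

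Genes kept by filterByExpr (minimum count 10, minimum total 15) entered a quasi-likelihood fit in edgeR (4.0.16, under R 4.3.3, robust, TMM factors, no covariate), with Benjamini-Hochberg adjustment over 15626 genes, and the script was tested on simulated data. Fold changes are LN95(KO) over LNCaP95, SE is the absolute log2 value over the square root of F, and a change was called at an adjusted p under 0.05 and over 2-fold. The study used DESeq2, which was an alternative here (version 1.42.0), as were other factors, no filter and leaving out each library.

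Identifiers were matched to symbols for 59858 of 60880 genes. Annotation was GENCODE release 44 on GRCh37, the build of the counts. The 10 genes and all lists were chosen with earlier results of these data known. Named genes were the 10, UGT2B17, the related kinases, and up to 4 genes per other list past a 2-fold change with a mean count of at least 50. The marker PECAM1 was not analysed here, and some genes of the lists are not reported here. Intervals (95% Wilson) and floors (3 counts) cover counting error only.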

Additional observations from a re-analysis of the deposited data

Results flagged for a closer look

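Both LN95(KO) libraries had a larger share of unaligned entries than either LNCaP95 library, in the part of the counting output that none of the expression comparisons drew on. The lowest LN95(KO) share was 7.707% (95% Wilson interval 7.70 to 7.72), against 3.96% (3.95 to 3.97) as the highest in LNCaP95. Entries dropped for low mapping quality came to 1.82% and 1.84% after knockout and to 1.91% and 1.98% in the controls. Whether the unaligned reads bear on the counts of the SRC family was not tested.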

How the results depend on the processing

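No paired analysis was possible because LNCaP95 replicates are numbered 1 and 2 and LN95(KO) replicates 3 and 4. Of 81 repeats of the 9 fold changes under 9 alternatives, 78 kept their direction and side of the threshold, and the other 3 were all of PAG1. Its log2 fold change was 1.24 with DESeq2 (adjusted p 0.109) and 0.85 to 1.76 with 1 library left out, where the call ended without LNCaP95 replicate 2 or LN95(KO) replicate 4. The genes past a 2-fold change numbered 3 or 4 of the 9 throughout.

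The shares of the kinases depended on the length by which counts were divided. With the union of annotated exons the difference between the lines, in percentage points, was 2.83 for SRC, against 4.95 with the longest transcript. For YES1 it was -1.42, for FYN -7.14, for LYN 3.52 and for FRK 2.25. With raw counts it was 2.66 for SRC, -2.06 for YES1, -8.85 for FYN, 3.40 for LYN and 4.87 for FRK. The direction for YES1 (1.03 as reported) therefore reversed, as it did without LN95(KO) replicate 4, and ranged from -0.358 to 2.42 with 1 library left out. The canonical transcript, an alternative chosen after seeing the data, gave 0.949 for YES1.

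Among the other lists, DESeq2 gave 1 substrate past a 2-fold change in place of 2, 6 maturation genes past the adjusted threshold in place of 10, and 1 dasatinib-bound kinase past either threshold in place of 2 and 3. With 1 library left out, 1 to 2 substrates passed a 2-fold change and 0 to 1 related kinases passed the adjusted threshold, and 1 related kinase, PTK6, passed with upper quartile factors. The causes were not tested. Over all genes, 2811 were past a 2-fold change, with 2304 under DESeq2 and 3362 without a filter. Low counts limit PAG1, LCK, ANXA2 and PDGFRB.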
